A study of Mus musculus with 9 samples.

Results

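PER2 is a repressor of the circadian clock. Whole Per2-/- cultures were compared here with whole WT cultures of mouse embryonic fibroblasts (MEFs) that had been transduced to make induced neurons (iNs). Each library was one single-cell RNA-seq sample, and the counts of all its cells were added up with no division into cell types. The comparison used the 3 libraries titled Per2-/- and the 3 titled WT, 6 of the 9 libraries of the series, and the remaining 3 were Per1-/-. A barcode, which stands for a cell, was kept when it had at least 3000 unique molecular identifiers (UMIs) and at most 20% of them in mitochondrial genes. This left 55550 of 66345 barcodes in the 6 libraries, against 81999 of 95603 in all 9. Genes of the X and Y chromosomes were left out.

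The cultures came from mid-gestation embryos without head and heart, which were pooled within a dish and not sexed. All genotypes received lentiviruses for neuronal transcription factors, among them Brn2 (Pou3f2) and Myt1l, under a doxycycline-dependent promoter, and day 0 was the change to neuronal medium with doxycycline. Per2-/- mice came from the line B6.129-Per2tm1Drw/J and Per1-/- mice from B6.129-Per1tm1Drw/J, each with a targeted allele. WT mice were obtained by breeding. One library was made per genotype on each of days 4, 7 and 10, so that the 3 days served as the repeats and WT and Per2-/- were paired by day. The number of MEF preparations behind the 3 days is not given in the sources used here. The p-values of the gene tests therefore rest on how the genotype difference varied from day to day, which may be technical in part.

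In the clock, CLOCK and BMAL1 (Arntl) drive transcription of the Per and Cry genes, whose proteins return to the nucleus and repress CLOCK and BMAL1. A second loop runs through the nuclear receptors REV-ERB (Nr1d1, Nr1d2), which repress Arntl, and ROR (Rora and Rorb among them), which activate it. In fibroblasts the clock runs in each cell, and cells that have not been synchronized differ in phase.

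The 6 libraries held between 109220688 and 314400438 UMIs in the genes used, and the median UMI count of a kept barcode lay between 11514 and 25668. The WT library of day 10 stood apart from the others. Of its barcodes 55.4% were kept, against 87.1% to 94.5% in the other 5 libraries, and 47.7% of its kept barcodes had fewer than 10000 UMIs, against 3.76% to 15.6%. Values without day 10 are given beside the results below that rest most on it. Pairs of these 6 libraries shared 15 to 32 kept barcode sequences, at most 0.372% of the smaller library. Y-linked genes, which the comparison left out, stood at 51.6 to 113 CPM in the 6 libraries and at 117, 209 and 215 CPM in Per1-/- on days 4, 7 and 10, so that the Per1-/- libraries of days 7 and 10 stood apart from the rest. The part of this in the comparisons with Per1-/- was not tested.

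The labels call the samples induced neurons, but most kept barcodes carried few neuronal UMIs. Barcodes with at least 20 UMIs over Stmn2, Stmn3, Snap25, Syt1 and Tubb3 made up 19.8%, 12.1% and 4.64% of WT barcodes on days 4, 7 and 10. In Per2-/- the shares were 15.8%, 9.91% and 8.25%. Per2-/- was thus below WT on days 4 and 7 and above it on day 10. The cut depends on depth: with each barcode thinned to 3000 UMIs the shares were 0.472%, 1.49% and 0.935% in WT and 0.901%, 1.41% and 2.43% in Per2-/-, so that day 4 had the opposite order. The summed level of 17 neuron markers was 816, 757 and 788 counts per 1000000 UMIs in WT and 829, 657 and 905 in Per2-/-. The mean difference, Per2-/- minus WT, was -0.87 percentage points without thinning ± 3.98 (SD, n = 3 days, exact sign-flip permutation test, two-sided, p = 0.75, where 3 pairs cannot give less than 0.25).

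Macrophages occur in MEF cultures, and they were counted by at least 5 UMIs over Tyrobp, Fcer1g, C1qa, C1qb, C1qc and Csf1r. WT shares were 2.63%, 8.70% and 20.01% on days 4, 7 and 10, and Per2-/- shares were 3.36%, 17.1% and 14.5%. The day 7 shares lay far apart and the day 10 shares had the opposite order. Among barcodes with at least 10000 UMIs the order of day 10 changed, with 10.6% in WT and 15.6% in Per2-/-. The macrophage barcodes of the WT day 10 library had a median of 5522.5 UMIs, against at least 21921.5 in the other 5 libraries. The mean difference was 1.20 percentage points ± 6.94 (SD, n = 3 days, exact sign-flip permutation test, two-sided, p = 0.75).

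**Figure D1:**
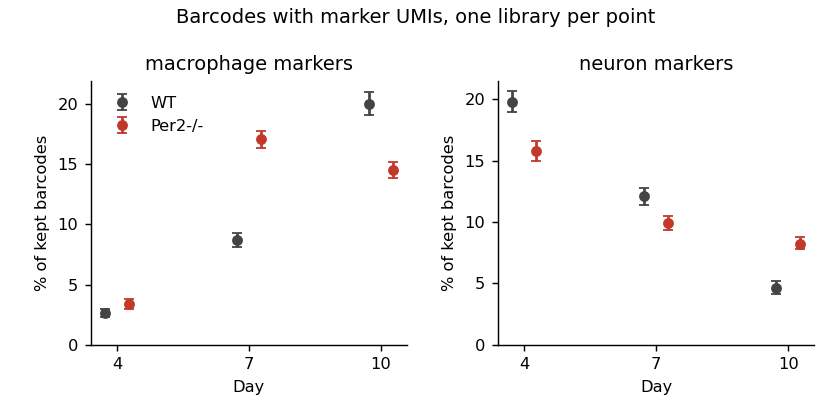
Share of kept barcodes (percent, vertical axes) with macrophage or neuron marker UMIs by day in WT (grey) and Per2-/- (red), one library per point, bars are exact 95% binomial intervals for counting error. The macrophage share of Per2-/- is above WT on day 7 (17.1% against 8.70%) and below it on day 10 (14.5% against 20.01%).

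Per2 itself, on the minus strand of chromosome 1 (chr1:91415982-91459324, GRCm38), was detected in all 6 libraries. Levels here are UMIs per 1000000 UMIs of the library sum (CPM). WT had 2.74, 2.98 and 3.04 CPM on days 4, 7 and 10, and Per2-/- had 6.51, 5.29 and 6.63 CPM. Every Per2-/- library was above every WT library. The fitted log2 fold, Per2-/- over WT, was 1.14 ± 0.16 (SE) with an edgeR adjusted p of 0.0723, which did not pass the threshold of 0.05. The Per1-/- libraries had 2.79, 2.69 and 3.23 CPM, close to WT on each day, and the direct contrast of Per2-/- with Per1-/- passed (log2 fold 1.06, adjusted p = 0.0498). These UMIs come from the 3′ ends of transcripts and do not show whether the targeted part is transcribed, so the level is no test of the loss of PER2 protein.

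Across the genome few genes separated the genotypes beyond the day-to-day variation of the difference between them. Of 17770 genes tested, 5 passed (edgeR quasi-likelihood test with day as a term, Benjamini-Hochberg adjusted p under 0.05), which is 0.0281%. Of these, 4 rose in Per2-/- (0.0225%) and 1 fell (0.00563%). Before adjustment 1496 genes (8.42%) had a p under 0.05, 855 of them above WT (4.81%) and 641 below it (3.61%). The median log2 fold over all genes was 0.00, and the median log2 ratio of their CPM values was -0.04, -0.03 and -0.14 on days 4, 7 and 10. The number that passed depended strongly on the days, with 0 without day 10, 142 without day 7 (0.798%) and 450 without day 4 (2.50%), and on the tool, with 354 in DESeq2 (1.99%) and 11 in limma-voom (0.0619%). Without day 10, 1453 genes still had an unadjusted p under 0.05 (8.15%). Without the filter on low counts the share was 0.876%, with all 9 libraries 0.0166%, with all barcodes 0.0337%, in barcodes of at least 10000 UMIs 0.0508%, without the macrophage barcodes 0.0632% and with the level of Y-linked genes as a covariate 1.61%.

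The gene with the clearest known role among the 5 was Myog, which encodes myogenin, a transcription factor that starts the differentiation of skeletal muscle. It lies on chromosome 1 (chr1:134289989-134292548, plus strand), 42.8 Mb from Per2. Myog had 0.131, 0.432 and 0.403 CPM in WT and 0.897, 2.50 and 2.53 CPM in Per2-/- on days 4, 7 and 10. All 3 Per2-/- libraries were above all WT libraries, by 6.83, 5.78 and 6.27 times on the 3 days. The log2 fold was 2.71 ± 0.22 (SE, adjusted p = 0.0168). These are low levels that rest on 158 UMIs in WT and 1507 in Per2-/- over the 3 libraries of each. Per1-/- had 0.619, 0.506 and 0.662 CPM of Myog, above WT on each day, and the contrast of Per2-/- with Per1-/- did not pass (log2 fold 1.51, adjusted p = 0.133).

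Ptgis, the prostacyclin synthase, rose from 6.92, 7.55 and 6.39 CPM in WT to 15.8, 19.6 and 14.9 CPM in Per2-/- (log2 fold 1.34 ± 0.12 SE, adjusted p = 0.0168). Its gene lies on chromosome 2 (chr2:167191805-167240604, minus strand). The groups did not overlap, and the ratio stayed between 2.29 and 2.59 on the 3 days. Per1-/- had 11.9, 20.1 and 11.6 CPM of Ptgis, also above WT on each day, and Per2-/- and Per1-/- did not separate (log2 fold 0.21, adjusted p = 0.461).

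Rarres1, a gene first found as responsive to retinoid treatment, was the one gene that fell. It had 11.1, 11.6 and 14.9 CPM in WT and 3.84, 4.73 and 4.29 CPM in Per2-/- (chr3:67478972-67515523, minus strand). The highest Per2-/- library was below the lowest WT library, with a log2 fold of -1.46 ± 0.14 (SE, adjusted p = 0.0245). Per1-/- libraries had 7.20, 13.6 and 19.8 CPM of Rarres1, on both sides of WT.

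The other 2 genes that rose are annotated as long intergenic RNAs of very low level. AC167229.1 (chr10:100129868-100144126, minus strand) had 1, 1 and 0 UMIs in WT and 52, 207 and 103 UMIs in Per2-/-. Over the summed libraries this was a ratio of 134, with a 95% counting interval of 36.9 to 1111. Gm45889 (chr7:142283210-142290418, plus strand) had 12, 10 and 2 UMIs in WT and 198, 183 and 120 in Per2-/- (ratio of the sums 15.5, counting interval 10.3 to 24.4). All 5 genes also passed without the macrophage barcodes. Both intergenic RNAs were above WT in the Per1-/- libraries, at 0.0385 to 0.145 CPM for AC167229.1 and 0.0801 to 0.160 CPM for Gm45889, and Per2-/- exceeded Per1-/- in the direct contrast (log2 fold 2.43 and 2.72, adjusted p = 0.0498 and 0.0474).

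**Figure D2:**
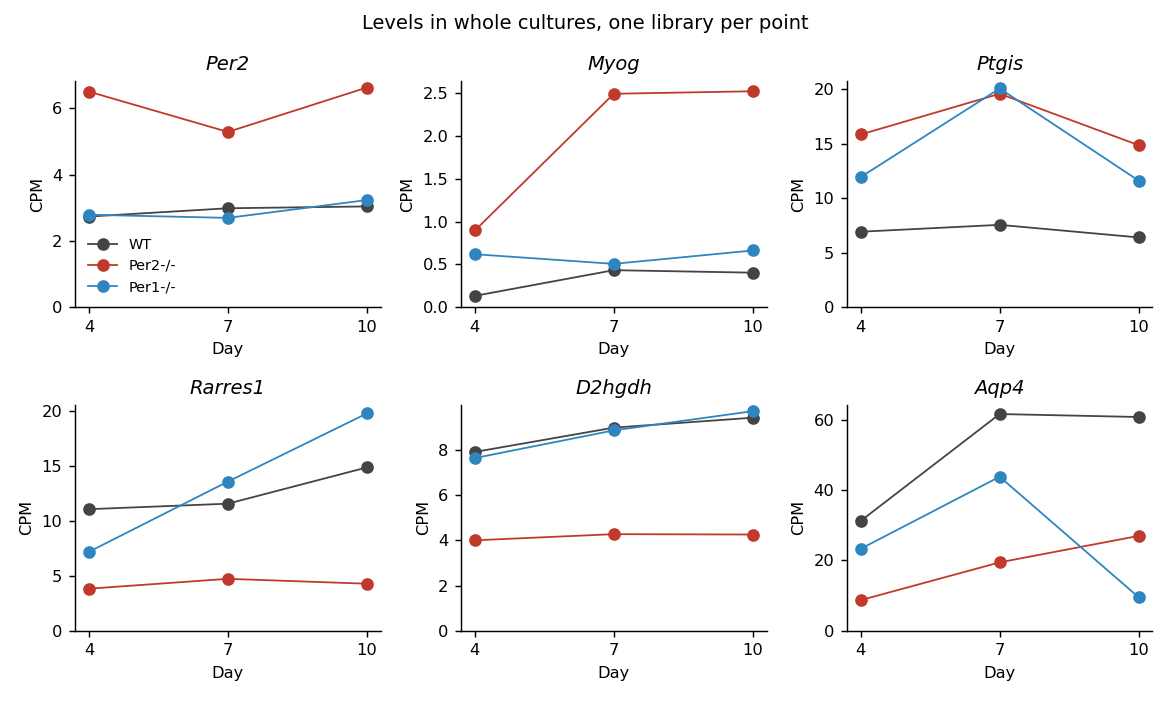
Level in CPM (vertical axes) of 6 genes by day in WT (grey), Per2-/- (red) and Per1-/- (blue), one library per point and no error bar. The Per2-/- points of Per2, Myog and Ptgis are above all WT points, and those of Rarres1, D2hgdh and Aqp4 are below them.

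Of 16 skeletal muscle markers 15 were tested, 1 passed (Myog) and 10 were above WT at an unadjusted p under 0.05, against 4.81% of all genes, while 1, Acta1, was below. The median log2 fold of the 15 was 1.08, and 11 were higher in Per2-/- on 3 of 3 days, against 9.38% of all genes. The summed level of the 16 markers differed less, with 84.9, 109 and 90.6 CPM in WT and 112, 119 and 128 in Per2-/- on days 4, 7 and 10. Apart from Myog, the genes of this and the following lists that are not the most abundant members were chosen for naming after their values were seen, and they did not pass the adjusted test. Myod1, the factor that commits cells to the muscle lineage, had 0.783, 1.10 and 0.916 CPM in WT and 1.71, 2.17 and 2.22 CPM in Per2-/-. Its groups did not overlap (log2 fold 1.20, adjusted p = 0.0925). Mylpf, a light chain of fast muscle myosin, had 8.23, 6.34 and 17.2 CPM in WT and 16.0, 21.2 and 28.5 in Per2-/- (log2 fold 1.22, adjusted p = 0.0823). Here the WT library of day 10 reached the range of Per2-/-. Myl1, another myosin light chain, had 1.35, 2.82 and 1.92 CPM in WT and 3.88, 4.53 and 7.53 in Per2-/-, and Actc1, the actin of embryonic and cardiac muscle, had 8.99, 8.89 and 4.82 CPM in WT and 12, 18.03 and 14.6 in Per2-/-. Acta1, the skeletal muscle actin, went the other way with 22.4, 39.8 and 33.9 CPM in WT and 21.6, 21.7 and 21.6 in Per2-/-. Without the macrophage barcodes 8 of 14 muscle genes tested were above WT at an unadjusted p under 0.05, against 3.82% of all genes in that fit, and the median log2 fold was 1.03.

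Muscle genes are read by factors such as MYOD1 and myogenin at the letters CANNTG, the E-box. The promoters of 3 of these genes are shown because all 3 genes lay above WT on each day, from 250 bases before to 50 after the gene start in RefSeq (GRCm38.p6), 5′ to 3′ on the gene's own strand, with each CANNTG in capitals. The motif reads the same on both strands, and 72.3% of 32851 promoters in the table hold it at least once. The Myog window (chr1:134289754-134290053, plus strand) holds 2 matches, and those of Myl1 (chr1:66945007-66945306, minus strand) and Mylpf (chr7:127211358-127211657, plus strand) hold 1 each, both with the letters CAGCTG.
Myog: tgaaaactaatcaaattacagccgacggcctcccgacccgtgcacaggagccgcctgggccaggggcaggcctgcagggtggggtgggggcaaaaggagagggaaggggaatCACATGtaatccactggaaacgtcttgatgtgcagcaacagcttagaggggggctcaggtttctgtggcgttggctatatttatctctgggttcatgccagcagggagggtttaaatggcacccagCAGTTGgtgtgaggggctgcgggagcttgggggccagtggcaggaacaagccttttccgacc
Myl1: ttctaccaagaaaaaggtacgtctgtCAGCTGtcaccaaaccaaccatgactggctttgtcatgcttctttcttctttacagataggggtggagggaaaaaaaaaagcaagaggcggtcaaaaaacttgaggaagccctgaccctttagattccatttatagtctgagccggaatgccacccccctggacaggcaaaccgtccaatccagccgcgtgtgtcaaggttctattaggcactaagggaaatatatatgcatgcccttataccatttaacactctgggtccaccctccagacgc
Mylpf: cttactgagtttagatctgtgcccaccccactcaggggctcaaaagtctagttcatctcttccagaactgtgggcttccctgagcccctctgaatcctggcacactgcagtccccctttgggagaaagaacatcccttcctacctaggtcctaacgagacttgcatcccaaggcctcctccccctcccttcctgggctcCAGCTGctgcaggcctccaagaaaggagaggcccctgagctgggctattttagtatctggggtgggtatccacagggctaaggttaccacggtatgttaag
A match is thus common among promoters, and binding was not measured.

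**Figure D3:**
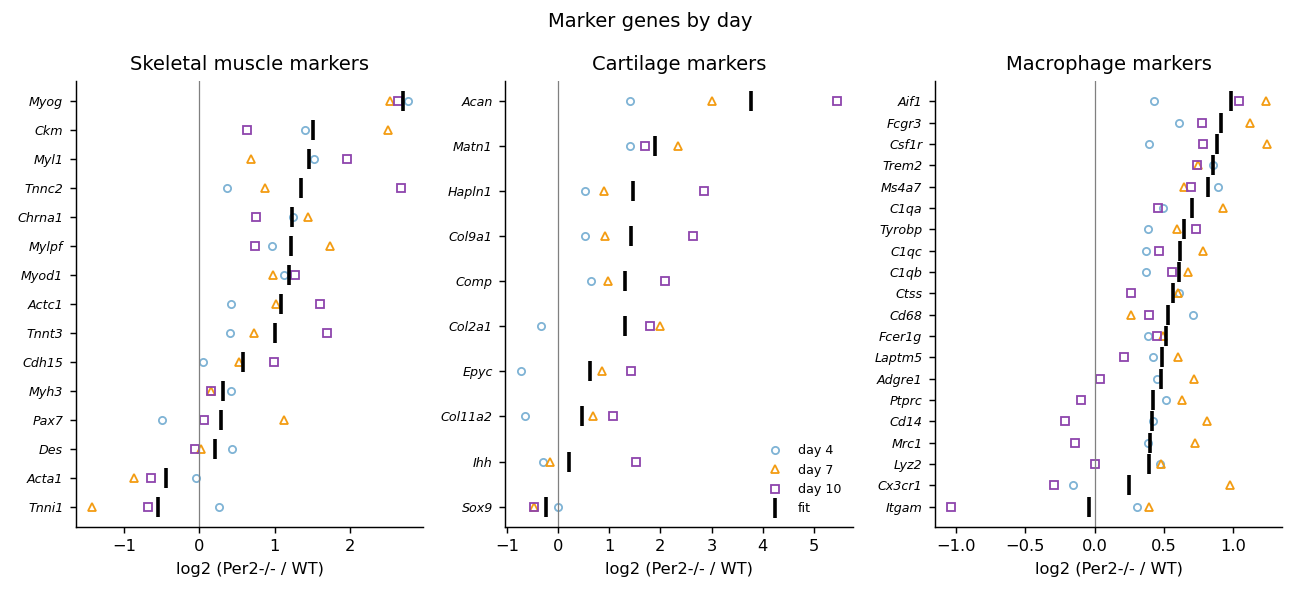
Log2 ratio of Per2-/- to WT (horizontal axes) for the genes of 3 marker lists, on day 4 (circles), day 7 (triangles) and day 10 (squares), with the fitted value as a black bar. Most skeletal muscle genes lie right of 0 on all 3 days (11 of 15), cartilage genes do so most on day 10, and macrophage genes lie right of 0 with 15 of 20 on all 3 days.

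Of 10 cartilage genes tested none passed, and 6 were above WT at an unadjusted p under 0.05, against 4.81% of all genes. On all days 5 of the 10 were higher, against 9.38% of all genes, and none was higher without overlap, against 1.85%. Their median log2 ratio was 0.26 on day 4, 0.90 on day 7 and 1.75 on day 10. Their summed level was 89.0, 116 and 168 CPM in WT and 91.5, 125 and 281 in Per2-/- on days 4, 7 and 10. In Per1-/- it was 101, 179 and 213 CPM, also above WT on each day and above Per2-/- on days 4 and 7. Comp, a matrix protein of cartilage and tendon, had 6.57, 17.6 and 24.1 CPM in WT and 10.2, 34.6 and 103 CPM in Per2-/- (log2 fold 1.30 ± 0.27 SE, adjusted p = 0.143, and 0.84 without day 10). Acan, which encodes the proteoglycan aggrecan, had 0.0235, 0.0603 and 0.0732 CPM in WT and 0.0623, 0.483 and 3.21 in Per2-/-. Col2a1, the collagen of cartilage, had 1.64, 2.42 and 7.12 CPM in WT and 1.29, 9.62 and 24.8 in Per2-/-, so that day 4 had the opposite order. Sox9, the transcription factor of cartilage formation and the most abundant gene of the list, had 72.6, 85.2 and 120 CPM in WT and 72.7, 61.4 and 86.1 in Per2-/- (log2 fold -0.24, adjusted p = 0.734). Without day 10 the median log2 fold of the 9 cartilage genes tested was 0.74, and 4 were above WT at an unadjusted p under 0.05, against 4.12% of all genes in that fit.

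The Hox genes split by position. Hox genes lie in 4 clusters and are numbered by paralog group, and in the embryo low numbers are used toward the head and the highest toward the tail and the ends of the limbs. Of 39 genes 38 were tested and none passed, while 15 were below WT and 6 above it at an unadjusted p under 0.05, against 3.61% and 4.81% of all genes. The split at group 10 was made after the values were seen and is a description. In groups 1 to 9, 24 of 26 genes had a negative log2 fold (median -0.58), and the 13 whose groups did not overlap were all lower in Per2-/-, where 8.0% of all genes were lower and 1.85% higher without overlap. In groups 10 to 13, all 12 had a positive log2 fold (median 0.60), 6 of them at an unadjusted p under 0.05, and 2 were higher without overlap. Hoxc13 and Hoxc10 were above WT on day 7 only, with ratios of 0.945, 10.3 and 0.925 and of 0.767, 1.71 and 0.875 on days 4, 7 and 10. Hoxb13 and Hoxc11 were below WT on day 10, with ratios of 0.257 and 0.832. Hoxa10 and Hoxa13 were below it on day 4, with 0.904 and 0.884. Hoxc8, which is used in the thoracic trunk, had 53.9, 57.2 and 51.4 CPM in WT and 32.2, 37.4 and 28.9 in Per2-/- (log2 fold -0.66 ± 0.11 SE, adjusted p = 0.0867). The groups lay well apart on every day. Hoxd13, which is used in the forming digits, had 33.7, 34.8 and 43.9 CPM in WT and 38.0, 48.3 and 63.2 in Per2-/- (log2 fold 0.46 ± 0.12 SE, adjusted p = 0.254). Lower levels without overlap were most frequent among Hoxb genes, with 8 of 9, whereas none of the 11 Hoxa genes was lower without overlap. Per1-/- was also below WT on each day for Hoxb9, Hoxb8, Hoxb6, Hoxb5 and Hoxb3, but not for Hoxb7, Hoxb4, Hoxb2 and Hoxb13. Hoxb9 passed in the edgeR test of Per1-/- against WT (log2 fold -0.84, adjusted p = 0.0238). Hoxd13 stood at 36.3, 2.49 and 3.78 CPM in Per1-/- on days 4, 7 and 10. The ratios varied by day: the median log2 ratio of groups 1 to 9 was -0.72, -0.21 and -0.65 on days 4, 7 and 10, and that of groups 10 to 13 was 0.08, 0.68 and 0.32. Without day 10, 14 Hox genes were below WT and 6 above it at an unadjusted p under 0.05, against 4.03% and 4.12% of all genes in that fit.

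**Figure D4:**
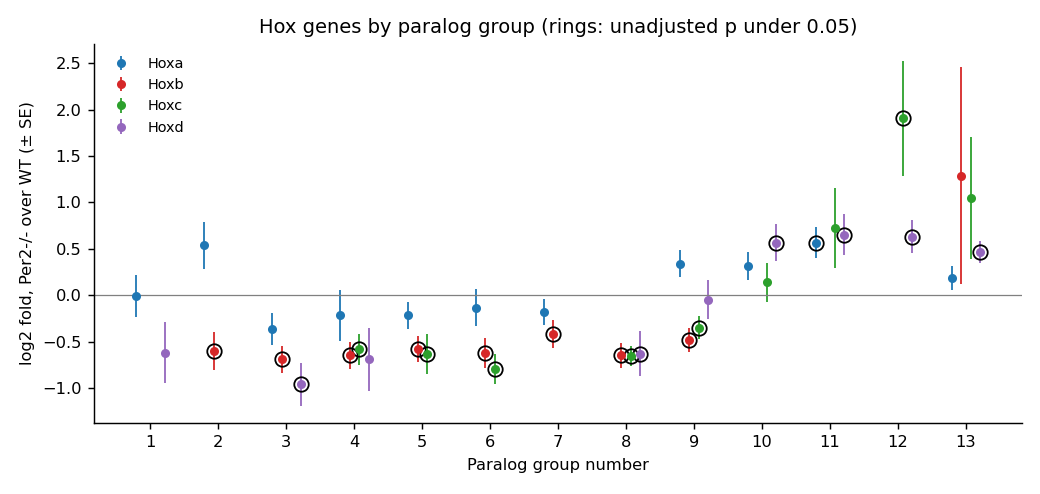
Fitted log2 fold of Per2-/- over WT (vertical axis, bars are SE) for 38 Hox genes by paralog group number (horizontal axis), coloured by cluster, with rings at an unadjusted p under 0.05. Genes of groups 1 to 9 lie mostly below 0 (24 of 26) and all 12 of groups 10 to 13 lie above it.

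Among genes of limb and skeletal patterning, 2 of 20 were above WT and 2 below it at an unadjusted p under 0.05, against 4.81% and 3.61% of all genes, and none passed. The median log2 fold was -0.16. The median log2 ratio was 0.04, -0.07 and -0.62 on days 4, 7 and 10, against -0.04, -0.03 and -0.14 over all genes. The negative value thus rests mostly on day 10. Without overlap 3 genes were lower and 1 higher, against 8.0% and 1.85% of all genes. Barx1, a homeobox gene, had 4.27, 2.37 and 1.90 CPM in WT and 9.52, 4.05 and 8.28 in Per2-/- (log2 fold 1.41, adjusted p = 0.121). Tbx5, which marks the forelimb, had 6.69, 6.02 and 5.91 CPM in WT and 8.02, 6.82 and 26.9 in Per2-/-, where the largest gap was on day 10 (log2 fold 0.92, and 0.26 without day 10). Shox2, one of the 2 most abundant members, had 125, 109 and 122 CPM in WT and 75.8, 114 and 47.6 in Per2-/- (adjusted p = 0.479).

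Clock genes other than Per2 had small log2 folds. All 22 genes of the core loop were tested and none passed, with 1 (Per2) above WT and 4 below it at an unadjusted p under 0.05, against 4.81% and 3.61% of all genes. The median log2 fold was -0.09. The 4 were receptors of the second loop. Nr1d1 had 10.1, 11.9 and 12.9 CPM in WT and 8.43, 6.25 and 9.86 in Per2-/- (log2 fold -0.46 ± 0.16 SE, adjusted p = 0.44). Nr1d2 had 23.6, 22.7 and 26.1 CPM in WT and 18.4, 19.3 and 18.9 in Per2-/- (log2 fold -0.28 ± 0.10 SE, adjusted p = 0.476). Rora had 53.7, 52.8 and 54.2 CPM in WT and 40.1, 34.4 and 43.0 in Per2-/- (log2 fold -0.38 ± 0.12 SE, adjusted p = 0.336). In these 3 genes the Per2-/- libraries lay below all WT libraries, though by small factors. Rorb had log2 fold -0.43 ± 0.14 (SE, adjusted p = 0.382) with groups that overlapped.

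The partners and paralogs of PER2 showed smaller values. Per1 had 6.60, 7.04 and 8.18 CPM in WT and 7.49, 6.80 and 6.80 in Per2-/-, a log2 fold of 0.03 with a 95% interval of -0.29 to 0.35. Per3 had a log2 fold of -0.12 (interval -0.42 to 0.17), Cry1 0.08 (-0.19 to 0.34) and Cry2 -0.13 (-0.41 to 0.15). For the activators, Clock had -0.10 (-0.37 to 0.17) and Arntl -0.21 (-0.47 to 0.05), and Arntl was lower on every day without overlap, at 13.1, 14.1 and 13.95 CPM in WT and 11.4, 11.9 and 10.5 in Per2-/-. The kinases Csnk1d and Csnk1e, which phosphorylate PER proteins, had log2 folds of -0.09 (interval -0.35 to 0.17) and 0.00 (-0.28 to 0.28). Of 10 output genes of the clock 9 were tested and none passed, with 1 above WT at an unadjusted p under 0.05 and none below, against 4.81% and 3.61% of all genes, and a median log2 fold of 0.15. Tef and Nampt, the most abundant, had log2 folds of -0.10 ± 0.12 and 0.15 ± 0.12 (SE). Dbp, which the clock drives directly, had 25.5, 32.0 and 31.8 CPM in WT and 24.3, 21.5 and 29.2 in Per2-/- (log2 fold -0.18 ± 0.14 SE, adjusted p = 0.861). Each library is 1 time of sampling of cells whose phases were not recorded, and phase was not tested.

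Genes close to Per2 are described next by counts, with no test of their position, and none of them within 10 Mb passed the adjusted test. Within 5 Mb of Per2, 23 of 89 genes had an unadjusted p under 0.05 (25.8%), 12 above and 11 below WT, against 8.42% of all genes. Between 5 and 10 Mb it was 8 of 39 (20.5%), and 10.3% without day 7 and 10.5% without the macrophage barcodes, between 10 and 20 Mb 10 of 105 (9.52%), over the rest of chromosome 1 105 of 888 (11.8%) and on the other chromosomes 1349 of 16648 (8.10%). For genes with a mean of at least 5 CPM the share within 5 Mb was 18.5% (10 of 54), against 6.39% on other chromosomes. Without day 10 the share within 5 Mb was 20.2%, against 8.15% of all genes in that fit, without day 7 it was 17.0% against 6.80% and without day 4 21.3% against 10.3%. Whether WT and Per2-/- embryos carried the same sequence around Per2 is not given in the sources used here, and its part in these differences was not tested.

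D2hgdh, the mitochondrial D-2-hydroxyglutarate dehydrogenase, lies 2.37 Mb from Per2 (chr1:93824909-93852348, plus strand). It had 7.90, 8.97 and 9.41 CPM in WT and 3.997, 4.27 and 4.25 in Per2-/- (log2 fold -0.99 ± 0.13 SE, adjusted p = 0.0723). The ratio was 0.506, 0.476 and 0.452 on the 3 days, and the Per1-/- libraries stood at the WT level with 7.63, 8.85 and 9.70 CPM. The contrast of Per2-/- with Per1-/- passed for D2hgdh (log2 fold -1.08, adjusted p = 0.0474). The 4 other genes named here, all within 3 Mb of Per2, were chosen after their values were seen. Stk25, a kinase gene, had 56.3, 44.0 and 51.3 CPM in WT and 32.4, 31.8 and 31.2 in Per2-/-. Mlph, which encodes the melanosome carrier melanophilin, had 38, 28 and 10 UMIs in WT and 79, 116 and 148 in Per2-/-. Gal3st2 had 63, 25 and 8 UMIs in WT and 1, 7 and 0 in Per2-/-, and Gm10550 had 71, 77 and 17 against 11, 22 and 10. Over all genes 8.0% were lower and 1.85% higher without overlap. In each of the 4 the groups did not overlap in CPM, but they were picked with their values known, so this is no result about the region. The 4 tested genes closest to Per2 showed no such gap. Hes6 had a log2 fold of -0.07 (95% interval -0.42 to 0.27), Ilkap 0.06 (-0.18 to 0.31), Traf3ip1 0.06 (-0.22 to 0.33) and Erfe 0.24 (-0.58 to 1.06).

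**Figure D5:**
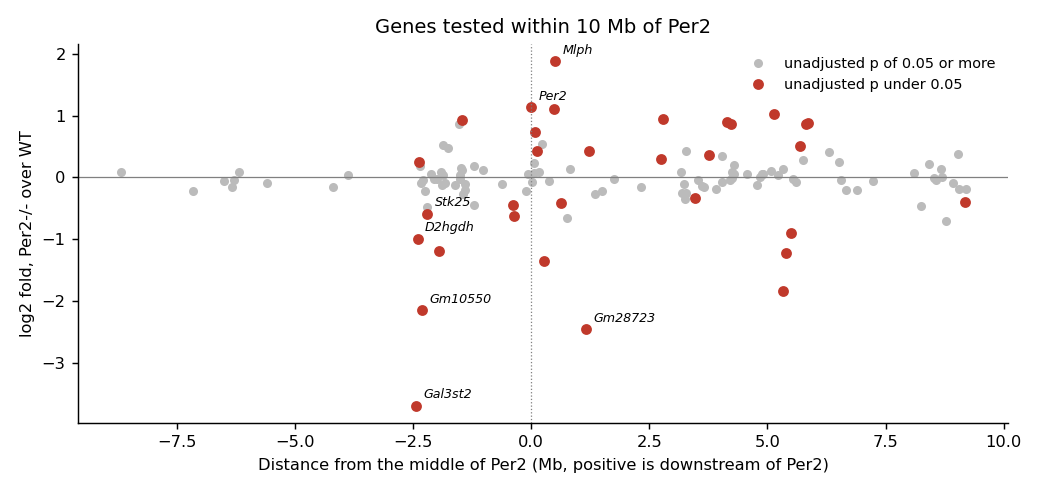
Fitted log2 fold of Per2-/- over WT (vertical axis) for the genes tested within 10 Mb of Per2, by distance from the middle of Per2 (horizontal axis, Mb), with genes at an unadjusted p under 0.05 in red. Gal3st2, Gm10550, D2hgdh and Stk25 lie within 3 Mb on one side.

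The 8 genes after the 4 that rose, ordered by p among genes with a mean of at least 5 CPM and higher on all days, were Palmd, Trem2, Clec4n, Apoe, Pf4, Pcp4, Ccl3 and Fcgr3, and none of them passed. All but Palmd and Pcp4 are known from macrophages, a grouping made after the genes were seen. All 20 macrophage markers were tested, none passed, and 17 were above WT at an unadjusted p under 0.05, against 4.81% of all genes, with a median log2 fold of 0.55. Their summed level was 707, 2358 and 2691 CPM in WT and 989, 3681 and 3519.5 CPM in Per2-/-, higher on each day. These sums alone do not separate more macrophages from more RNA per macrophage. Macrophage barcodes were 2.63% in WT and 3.36% in Per2-/- on day 4, with medians of 28837 and 23338.5 UMIs. On day 7 they were 8.70% and 17.1%, with medians of 26668 and 28824 UMIs. On day 10 the share was lower in Per2-/- (14.5% against 20.01%) and the median higher (21921.5 against 5522.5 UMIs). The part of each in the sums was not tested. Trem2, a receptor of macrophages and microglia, had 19.5, 84.3 and 84.4 CPM in WT and 35.3, 141 and 141 in Per2-/- (log2 fold 0.85 ± 0.10 SE, adjusted p = 0.0633). Lyz2 and Fcer1g, the most abundant members, had log2 folds of 0.39 ± 0.14 and 0.52 ± 0.12 (SE, adjusted p = 0.448 and 0.178). Apoe, the lipid carrier that macrophages and other cells make, had 229, 666 and 883 CPM in WT and 441, 2112 and 2330 in Per2-/- (log2 fold 1.41 ± 0.18 SE, adjusted p = 0.0647), and 0.42 without the macrophage barcodes. In that fit Trem2 went from 0.85 to 1.32 ± 0.38 (SE), Ccl3 from 0.89 to 1.34 ± 0.45, Lyz2 from 0.39 to 0.66 ± 0.29 and Fcer1g from 0.52 to 0.77 ± 0.35. Clec4n went from 1.17 to 1.04 ± 0.50, Pf4 from 1.08 to 0.57 ± 0.36 and Fcgr3 from 0.91 to 0.71 ± 0.38, and none of these genes passed. Fcer1g was among the genes by which barcodes were removed, so the cut itself limits its value there. The values rest on the macrophage UMIs left over and do not show whether these genes changed outside macrophages. The barcodes left held 30.7, 36.8 and 72.6 CPM of the 20 markers in WT and 23.2, 105 and 135 in Per2-/-.

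Per1-/- cultures held more of this signal still. The summed level of the 20 markers was 1563, 8872 and 7378 CPM in Per1-/-, above Per2-/- on each day, and Trem2 was lower in Per2-/- than in Per1-/- (log2 fold -0.85, adjusted p = 0.0474). In this contrast, which shares the Per2-/- libraries with the one against WT, 39 of 18078 genes passed (0.216%), 7 higher (0.0387%) and 32 lower in Per2-/-. DESeq2 gave 1191 (6.59%) and limma-voom 201 (1.11%) in the same contrast, and leaving out a day gave 0 to 1763.

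Palmd, which encodes palmdelphin, a protein of the cell cortex, had 4.66, 10.3 and 13.4 CPM in WT and 9.85, 30.9 and 25.3 in Per2-/- (log2 fold 1.27 ± 0.14 SE, adjusted p = 0.0518). Pcp4, a calmodulin-binding protein, had 2.36, 4.71 and 14.6 CPM in WT and 4.62, 8.51 and 23.4 in Per2-/- (log2 fold 0.91 ± 0.12 SE, adjusted p = 0.0723). Both kept their values without the macrophage barcodes, with log2 folds of 1.33 and 0.98.

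After Rarres1, the 11 genes lower in Per2-/- with the smallest p, chosen in the same way, were Aqp4, Prl, Tnr, Ankrd1, D2hgdh, Bcl11b, Il33, Slc4a4, Rpl39l, Ccl7 and Plac8, with log2 folds from -1.48 to -0.79 and adjusted p from 0.0518 to 0.0835. Aqp4, the water channel of astrocytes, had 31.2, 61.6 and 60.8 CPM in WT and 8.72, 19.4 and 27.0 in Per2-/- (log2 fold -1.48 ± 0.16 SE). Tnr, the extracellular matrix protein tenascin R of the nervous system, had 11.3, 7.50 and 6.58 CPM in WT and 5.60, 2.88 and 2.11 in Per2-/-. Ankrd1, a target of YAP signalling, had 18.5, 12.7 and 10.5 CPM in WT and 10.1, 5.44 and 4.61 in Per2-/-. Il33, a cytokine released from damaged cells, had 10.1, 22.3 and 22.2 CPM in WT and 3.95, 11.3 and 11.9 in Per2-/-. Aqp4, Tnr and Ankrd1 did not overlap between groups, and Il33 did. Rpl39l is a close copy of another ribosomal protein gene, so its counts (log2 fold -0.96) may be uncertain. The assignment of reads between the copies was not tested.

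Of 9 astrocyte markers, all tested, none passed, and 5 were below WT at an unadjusted p under 0.05, against 3.61% of all genes, with 7 lower on 3 of 3 days, against 22.3%. The median log2 fold was -0.56, and the values ran from -1.48 to 0.14. Their summed level was 405, 408 and 480 CPM in WT and 160, 310 and 362 in Per2-/-. In Per1-/- it was 270, 215 and 161 CPM, also below WT on each day. Gfap, the intermediate filament of astrocytes, had 9.84, 19.4 and 23.9 CPM in WT and 2.55, 10.4 and 11.1 in Per2-/- (log2 fold -1.23 ± 0.20 SE, adjusted p = 0.0925). Fabp7, the most abundant member and a marker of radial glia, had 261, 190 and 200 CPM in WT and 66.8, 158 and 174 in Per2-/-, with the largest gap on day 4 (adjusted p = 0.653). Slc1a3, the second most abundant, had a log2 fold of -0.18 ± 0.12 (SE, adjusted p = 0.834).

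Neuron markers showed no common direction. Of 20, 17 were tested and none passed, with 1 above and 2 below WT at an unadjusted p under 0.05, against 4.81% and 3.61% of all genes, and a median log2 fold of 0.10. Tubb3, the neuronal tubulin, had 208, 127 and 102 CPM in WT and 191, 96.05 and 155 in Per2-/- (log2 fold 0.10 ± 0.20 SE, adjusted p = 0.956, and -0.23 without day 10). Stmn2, a regulator of microtubules in growing axons, had 116, 132 and 127 CPM in WT and 163, 119 and 209 in Per2-/- (adjusted p = 0.583). Map2, the dendritic microtubule protein, had 115, 105 and 111 CPM in WT and 99.1, 89.6 and 61.3 in Per2-/-, below WT without overlap (log2 fold -0.36, adjusted p = 0.501). Pou3f2 and Myt1l, whose viral and cellular transcripts were not separated, had log2 folds of -0.19 ± 0.13 and -0.63 ± 0.15 (SE, adjusted p = 0.842 and 0.21).

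Of 19 genes that p53 activates or that inhibit the cell cycle 18 were tested and none passed, and 9 were below WT and none above it at an unadjusted p under 0.05, against 3.61% and 4.81% of all genes. Of the 18, 13 were lower on 3 of 3 days, against 22.3%, and the median log2 fold was -0.29. Cdkn1a, which encodes the inhibitor p21, had 373, 319 and 285 CPM in WT and 265, 158 and 217 in Per2-/- (log2 fold -0.56 ± 0.16 SE, adjusted p = 0.299). Cdkn2a, which encodes p16 and ARF, had 258, 259 and 279 CPM in WT and 134, 110 and 244 in Per2-/-, with the smallest gap on day 10 (adjusted p = 0.31). Trp53inp1 had 102, 91.3 and 91.0 CPM in WT and 72.8, 53.2 and 47.2 in Per2-/- (log2 fold -0.66 ± 0.12 SE, adjusted p = 0.103). The 2 most abundant members, Cdkn1c and Bax, had log2 folds of -0.02 ± 0.14 and -0.13 ± 0.15 (SE). Cell cycle genes themselves were 2 above and 1 below WT of 36 at an unadjusted p under 0.05, against 4.81% and 3.61% of all genes, with a median log2 ratio of 0.33 on day 4, 0.04 on day 7 and -0.20 on day 10.

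Of 20 cholesterol synthesis genes 19 were tested, none passed, and 7 were above WT at an unadjusted p under 0.05, against 4.81% of all genes, with a median log2 fold of 0.24. The median log2 ratio was 0.28 and 0.31 on days 4 and 7 and -0.14 on day 10, where the median over all genes was also -0.14. Of the 19, 5 were higher on all days, against 9.38% of all genes. Their summed level was 741, 533 and 769 CPM in WT and 868, 678 and 707 in Per2-/-. Fdft1, squalene synthase, had 45.3, 28.3 and 34.0 CPM in WT and 55.0, 34.8 and 41.0 in Per2-/- (log2 fold 0.36 ± 0.10 SE, adjusted p = 0.306). The 2 most abundant, Hmgcs1 and Cyp51, had log2 folds of 0.14 ± 0.17 and 0.21 ± 0.15 (SE).

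Of 27 collagen and matrix genes tested none passed, and 1 was above and 4 were below WT at an unadjusted p under 0.05, against 4.81% and 3.61% of all genes. On 3 of 3 days 15 of the 27 were lower, against 22.3% of all genes. Their median log2 fold was -0.15. Their median log2 ratio was -0.13, -0.12 and -0.44 on days 4, 7 and 10, against -0.04, -0.03 and -0.14 over all genes. Col1a1 and Col1a2, the chains of the main fibroblast collagen, had log2 folds of -0.03 ± 0.19 and -0.04 ± 0.17 (SE, adjusted p = 0.992 and 0.979). Of 13 genes of the IGF axis tested none passed, and 1 was above and 3 were below WT at an unadjusted p under 0.05, against 4.81% and 3.61% of all genes, with a median log2 fold of -0.09. On all days 1 was higher and 4 were lower, against 9.38% and 22.3% of all genes. The higher one was Igfbp4, a protein that binds insulin-like growth factors, which had 234, 424 and 533 CPM in WT and 416, 652 and 919 in Per2-/- (log2 fold 0.82 ± 0.13 SE, adjusted p = 0.0885). Igfbp5, of the same family, had 850, 665 and 565 CPM in WT and 594, 527 and 423 in Per2-/- (log2 fold -0.35 ± 0.13 SE, adjusted p = 0.477).

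Among 35 genes induced by TNF or NF-kB, 2 were above and 6 below WT at an unadjusted p under 0.05, against 4.81% and 3.61% of all genes. Their summed level was 654, 616 and 605 CPM in WT and 552, 519 and 595 in Per2-/-. On day 10 the list's median log2 ratio of -0.16 lay near the -0.14 of all genes. The median log2 fold was -0.04, and Vcam1 and Sod2, the most abundant, had log2 folds of -0.10 ± 0.12 and -0.08 ± 0.13 (SE). Of 33 interferon response genes tested none passed, and 2 were above WT and none below it at an unadjusted p under 0.05, against 4.81% and 3.61% of all genes. They did not keep 1 order across days, with a summed level of 1346, 1206 and 1647 CPM in WT and 812, 2204 and 2181 CPM in Per2-/-. Bst2, an antiviral membrane protein and the most abundant of the list, had 279, 198 and 286 CPM in WT and 156, 481 and 473 in Per2-/- (log2 fold 0.48 ± 0.36 SE, adjusted p = 0.861). Per2-/- was below WT on day 4 and above it on days 7 and 10.

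Other cell types that MEF cultures can hold were read from lists of their markers, and none of these lists had a gene that passed. Of 9 mesothelial markers 4 were above WT at an unadjusted p under 0.05, against 4.81% of all genes. Krt8 and Msln, the most abundant, had log2 folds of 0.09 ± 0.36 and -0.17 ± 0.31 (SE). Endothelial markers were above WT in 2 of 8, pericyte and smooth muscle markers in 1 of 10 and epithelial markers in 1 of 6 at an unadjusted p under 0.05, with none below, against 4.81% above and 3.61% below over all genes. Of 18 fibroblast markers 1 was below WT at an unadjusted p under 0.05 and none above it, which is near the share over all genes, and 6 were lower on 3 of 3 days, against 22.3%.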

How the data were processed

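Single-cell libraries were made with a 10x Genomics 3′ kit. The authors deposited, per library, UMI counts per gene and barcode as whole numbers, not normalized. The submitters' processing notes name Cell Ranger 7.1 and mm10, whereas the file headers give Cell Ranger 4.0.0 for days 4 and 7 and 6.0.0 for day 10. The gene tables hold 31053 and 32285 genes. The 30406 shared identifiers were placed by GENCODE release M21 (GRCm38), 1049 X and 723 Y genes were left out and 28634 remained. Gene counts were summed over kept barcodes per library, the day 10 WT library being the shallowest.

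Sums were tested with edgeR 4.0.16 in R 4.3.3 (TMM factors 0.954 to 1.05, filterByExpr, quasi-likelihood F-test, day and genotype as terms), with Benjamini-Hochberg adjustment at 0.05. The residual degrees of freedom were 2 before moderation across genes. Per2-/- was set against Per1-/- in a fit of all 9 libraries. Days pair the libraries by design. Deviations from the group means over 10680 genes (log2 of CPM plus 0.5) correlated at 0.745, 0.426 and 0.639 for the same day. Alternatives used DESeq2 1.42.0, limma 3.58.1 and the settings given with the closing results, and the code was tested on simulated counts. Shares of barcodes have exact binomial (Clopper-Pearson) intervals of 95%, which cover counting error only, as do the ratio intervals.

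Named genes were Per2, the clock genes, up to 12 genes in each direction (those that passed, then the smallest p among genes with a mean of at least 5 CPM and the same direction on all days), in each list the members that passed or otherwise the 2 most abundant, and the genes closest to Per2. The members and lists were chosen with earlier results of these data known. There were 33 gene lists. Those given above were described by counts and medians, without a set test, and the others are not reported here. Some marker genes and 1 of the transduced factors are not reported here. Doublets were neither called nor removed here.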

Additional observations from a re-analysis of the deposited data

Results flagged for a closer look

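Of Per2, the clock genes, the genes with the smallest p and those closest to Per2, 5 differed between Per2-/- and Per1-/- in the fit of all 9 libraries. Relative to Per1-/-, the log2 fold in Per2-/- was 2.43 for AC167229.1, 2.72 for Gm45889 and 1.06 for Per2, and it was -1.08 for D2hgdh and -0.85 for Trem2. For D2hgdh and Per2 the Per1-/- libraries lay near WT, for Trem2 they lay above Per2-/-, and for the long intergenic RNAs they lay between WT and Per2-/-. Among the most abundant list members Fcer1g also passed (-1.05).

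The interferon response list had opposite directions on different days, with a median log2 ratio of Per2-/- to WT of -0.78 on day 4 and 0.90 on day 7. This difference between days was not tested, since each day has 1 library per genotype.

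Y-linked genes, which the comparison left out, stood at 53.4 to 62.0 CPM in the WT libraries and at 113 CPM in Per2-/- on day 4, 51.6 on day 7 and 89.8 on day 10. Day 4 and day 10 of Per2-/- were above the range of WT. The Per1-/- libraries had 117, 209 and 215 CPM on days 4, 7 and 10, and in those of days 7 and 10 Xist was at 0.0730 and 0.0510 CPM, against 352 to 992 CPM in the other 7. The results of a fit with the Y-linked level as a covariate are given with the other settings.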

How the results depend on the processing

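Against 5 genes in the reported comparison with WT, 219 passed without the filter on low counts, 354 in DESeq2, 11 in limma-voom, 0 without the day term (no replicate block), 3 with all 9 libraries, 9 in barcodes of at least 10000 UMIs, 0 after thinning each barcode to 3000 UMIs, 11 without macrophage barcodes and 286 with the Y-linked level as a covariate. Leaving out 1 day gave 0 to 450. Where 0 passed, 534 genes without the day term, 1037 after thinning and 1453 without day 10 had an unadjusted p under 0.05. The long intergenic RNAs AC167229.1 and Gm45889 were not tested after thinning. All 5 genes passed in the settings with any call, except with all 9 libraries, where 2 of the 5 did. Within 10 Mb of Per2, with Per2 itself included, the count of 0 became 9 without the filter, 13 in DESeq2 and 6 with the Y-linked covariate. It was 0 to 11 when a day was left out. List members went from 1 to 34, 55, 2, 0, 2, 2, 0, 2 and 47 without the filter, in DESeq2, in limma-voom, without the day term, with all barcodes, at 10000 UMIs, after thinning, without macrophage barcodes and with the Y-linked covariate, and to 0 to 76 when a day was left out. In the same order the share of all genes that passed was 0.876%, 1.99%, 0.0619%, 0%, 0.0337%, 0.0508%, 0%, 0.0632% and 1.61%. It was 0.0281% in the reported comparison and 0% to 2.50% when a day was left out. The 39 genes against Per1-/- became 206 without the filter, 1191 in DESeq2, 201 in limma-voom and 0 to 1763 when a day was left out. The log2 fold of Per2 passed without the filter (1.15) and in DESeq2 (1.14), and lay between 1.05 and 1.28 when a day was left out, passing without day 4 or day 7. Without the day term it was 1.15 with adjusted p = 0.581, and with the Y-linked covariate 0.89 with adjusted p = 0.277. The cause of these shifts was not tested.

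Signs changed for 9 of the 49 genes recomputed in these settings. Of the 62 most abundant list members, 12 changed sign without day 10, 3 after thinning, 4 without macrophage barcodes and 2 in barcodes of at least 10000 UMIs, and all of these had an unadjusted p of 0.205 or more in the reported comparison. Among those described above, Tubb3 was -0.23, Col1a1 0.12, Col1a2 0.026 and Cdkn1c 0.058 without day 10, Tubb3 was -0.0074 and Col1a2 0.0014 after thinning, Col1a1 was 0.022 and Cdkn1c 0.0077 without macrophage barcodes, and Krt8 was -0.11 in barcodes of at least 10000 UMIs. After thinning Ciart was -0.23 and Per1 -0.11. With the Y-linked covariate Bhlhe40 was -0.052, Bhlhe41 0.048, Timeless -0.054, Per1 -0.033 and Erfe -0.16. Csnk1e was 0.0015 with DESeq2 size factors, 0.0059 without the filter, 0.0015 in DESeq2, 0.0042 in limma-voom, 0.0040 with all 9 libraries and 0.0047 with all barcodes. Leaving out a day gave -0.0092 to 0.10 for Ciart, -0.022 to 0.086 for Bhlhe40, -0.013 to 0.26 for Timeless, -0.081 to 0.10 for Per1, -0.16 to 0.087 for Csnk1e, -0.11 to 0.031 for Btrc, -0.29 to 0.033 for Hes6 and -0.15 to 0.43 for Erfe. With 1 library per genotype and day, a difference particular to 1 day cannot be separated from that library.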
